A study of Gallus gallus with 13 samples.

Results

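Chromatin of limb cells carrying 4 related DNA-binding proteins was searched for regions in which a peak had been called for every one of them. Merging the 4 deposited peak lists wherever peaks shared at least 1 bp gave 99237 regions, and 449 of them, or 0.452%, held at least 1 peak each of HOXD13 Q317K, HOXD13 Q317R, PITX1 and HOXD13 wt. These 449 are called the 4-factor regions. The members were thus chosen by the authors' peak calls, the same signal that gives peak strength, and strength, width and summit position are given as descriptions of the members, with no test.

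HOXD13 is the HOX transcription factor of the distal limb bud, and changes in it cause malformations of the digits. HOX factors and PITX1 bind DNA through a homeodomain, whose recognition helix lies in the major groove. In HOX proteins the helix carries a glutamine that helps choose the bases next to the core of the site, whereas PITX proteins carry a lysine there. The Q317K change gives HOXD13 the lysine of the PITX class, and Q317R gives it an arginine. PITX1 itself is a hindlimb factor.

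The cells were chicken limb bud mesenchyme of Hamburger-Hamilton stage 24, infected with an RCASBP(A) retrovirus. They were grown as micromass, a high-density culture in which limb mesenchyme makes cartilage, and harvested at day 9. The viruses carried FLAG-tagged mHoxd13 with Q317K, mHoxd13 with Q317R, cPITX1 (wt) or mHoxd13 (wt), and 1 further culture, used for RNA alone, received the empty vector. The factors were therefore supplied from a virus in the whole culture, in cells that keep their own HOXD13 and PITX1 genes. Chromatin was precipitated with the FLAG M2 antibody. Each factor has 1 peak list, of 25036 (Q317K), 21396 (Q317R), 40881 (PITX1) and 34267 (HOXD13 wt) peaks, and read depth behind the lists is unknown. Inputs were not analysed here, and no FLAG precipitation from empty-vector cultures was analysed here, so the antibody signal without a tagged factor was not measured. The sources used here do not name a genome build for the positions, and no genome was used, so regions are named by position only and no gene was assigned to them. Brackets hold 95% intervals, exact binomial for shares and from order statistics for medians. They treat regions as independent, cover only how many regions were counted, and say nothing of the spread between cultures, for which there are no replicates.

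RNA of matching cultures was checked against the labels, with 1 library a group and the highest of each gene's listed transcripts. PITX1 itself was at 10233 RPKM in the culture given its virus and between 24.8 and 64.5 RPKM elsewhere. HOXD13 was at 36.8 RPKM in the Q317K culture, 53.7 in Q317R, 63.4 in HOXD13 wt, 13.1 in PITX1 and 16.6 in empty vector. This row is a chicken transcript, whereas the viruses carry mHoxd13, so it may miss reads of the viral gene. The column taken as empty vector is headed leer, German for empty. All 5 cartilage markers (ACAN, COL2A1, COL9A1, MATN1 and SOX9) were at 16.4 RPKM or more in every library, but at very different levels. COL2A1, the main collagen of cartilage, was at 1983 RPKM in Q317K, 11296 in Q317R, 3437 in PITX1, 4279 in HOXD13 wt and 15370 in empty vector. ACAN, the cartilage proteoglycan, was at 59.9, 656, 208, 281 and 969 RPKM in the same order. The cultures thus did not hold cartilage transcripts in like amounts, and the part of this in the peak lists was not tested. Of 14 markers of muscle, endothelium, epithelium and blood, 10 were matched. Apart from ACTC1, an actin of cardiac and embryonic muscle, at 22.0 to 73.5 RPKM, and the embryonic globin HBE at 747 RPKM in the PITX1 library, these lay between 2.28 and 12.6 RPKM. Fewer cells of a type and less RNA per cell cannot be told apart in such bulk samples, and the part of other cells in the peak lists was not tested.

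**Figure D1:**
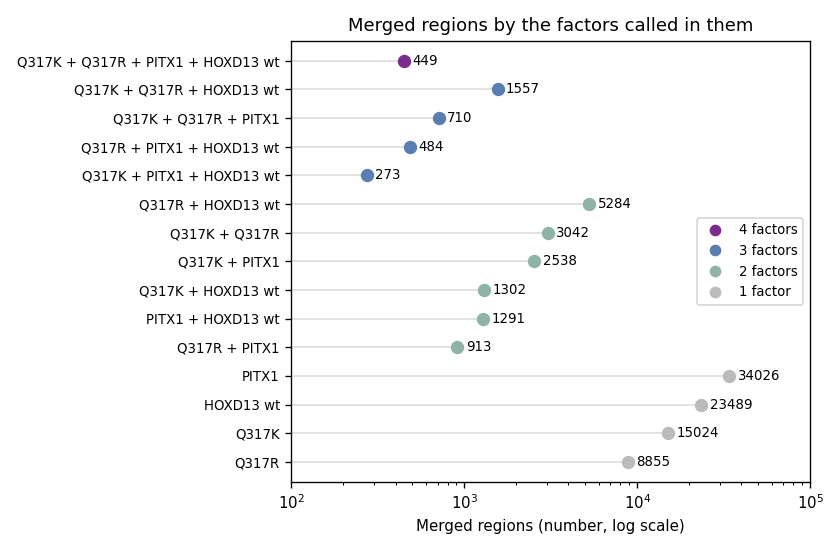
Number of merged regions (log scale) for each combination of factors called in them, with the 4-factor regions in purple at the top. The 4-factor regions number 449, between the 1557 regions of the 3 HOXD13 forms without PITX1 and the 273 of Q317K, PITX1 and HOXD13 wt without Q317R.

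The 449 regions with all 4 factors stood beside 3024 that lacked 1 of them. PITX1 alone was missing in 1557 regions, HOXD13 wt alone in 710, Q317K alone in 484 and Q317R alone in 273, as the plot of combinations shows. The 449 regions took up 478 Q317K peaks, or 1.91% of that list (1.74 to 2.09), 472 Q317R peaks, or 2.21% (2.01 to 2.41), 487 PITX1 peaks, or 1.19% (1.09 to 1.30), and 473 HOXD13 wt peaks, or 1.38% (1.26 to 1.51). The lists end at different lowest −log10 p values, 39.4 (Q317K), 36.7 (Q317R), 42.2 (PITX1) and 52.1 (HOXD13 wt). A factor missing from a region was thus not called there at the limit of its own list. For each region lacking 1 factor, the gap to the nearest peak of that factor was taken. The median gap was 11691 bp for PITX1, 9751 bp for HOXD13 wt, 9567 bp for Q317K and 11176 bp for Q317R. A peak of the missing factor lay within 500 bp of 60 of the 1557 regions without PITX1 and 21 of the 710 without HOXD13 wt. The same held for 15 of the 484 without Q317K and 13 of the 273 without Q317R. The gaps at other positions of the genome were not measured, so these values do not show whether such regions differ from the usual spacing of a list.

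Most 4-factor regions held exactly 1 peak of each factor, and most had bases under all 4 peaks. There was 1 peak of each in 370 regions, or 82.4% (78.6 to 85.8). More peaks than factors were held by 79 regions, or 17.6%, against 189 of 3024 regions of 3 factors, or 6.25%, and 0.523% of all merged regions, where a region of 1 peak cannot hold more. In 357 regions, or 79.5% (75.5 to 83.1), some base was covered by a peak of every factor, with a median of 593 such bases (565 to 648). In the remaining 92 regions, or 20.5% (16.9 to 24.5), the peaks were joined in a chain and no base lay under all 4. Requiring a shared base therefore leaves 357 regions.

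A few members depended on narrow contacts. The overlap that had to be kept for the 4 factors to stay joined was 647 bp at the median (614 to 677) and at most 100 bp in 20 regions. The members nearest to the 1 bp limit were held by 4 bp on chromosome 9 from 11040280 to 11043066, by 5 bp on chromosome 3 from 81257511 to 81259268 and by 6 bp on chromosome 2 from 133077428 to 133079544. Just outside the limit, 3 regions of the HOXD13 forms had a PITX1 peak at a gap of 0, 3 and 27 bp. They lay on chromosome 1 from 99092071 to 99094043, chromosome 3 from 49158177 to 49160888 and chromosome 6 from 25565195 to 25566351. Some members were also near the end of a list. In 106 of the 449 regions, or 23.6% (19.8 to 27.8), the weakest factor was among the lowest 10% of its own list by −log10 p. This takes the weakest of 4 factors, so a share above 10% can arise by construction. What unrelated percentiles would give was not computed, so the share does not show that members are weaker than other peaks. Of the single peaks in 4-factor regions, 19.0% (Q317K), 18.6% (Q317R), 14.4% (PITX1) and 24.1% (HOXD13 wt) were in the weakest 25.0% of their list by fold.

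The 4-factor regions were wide. Their median width was 1795 bp (1717 to 1916), with a range of 519 to 7275 bp, against 1290 bp (1266 to 1321) for regions of 3 factors, 946 bp for regions of 2 and 641 bp for regions of 1. Merging more peaks widens a region by construction, but the single peaks were wide as well. Median peak widths inside 4-factor regions and in the rest of the same list were 1001 and 619 bp for Q317K, 1192 and 661 bp for Q317R, 942 and 753 bp for PITX1, and 1052 and 588 bp for HOXD13 wt. A wide peak meets other peaks more easily, and the share of peaks in 4-factor regions followed the width. Among Q317K peaks it was 4.76% in the widest 25.0% of the list and 0.336% in the narrowest. The same shares were 6.06% and 0.374% for Q317R, 2.15% and 0.538% for PITX1, and 3.69% and 0.222% for HOXD13 wt. How far width alone accounts for membership was not tested.

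The widest member, on chromosome 3 from 25554940 to 25562214, spanned 7275 bp and held 7 peaks, of which 3 were PITX1 and 2 Q317R. On chromosome 10 from 7476613 to 7482634, a region of 6022 bp held 2 peaks of each factor. The region with the most peaks, 9, lay on chromosome 1 from 107522470 to 107526332 and held 4 PITX1, 2 Q317K, 2 Q317R and 1 HOXD13 wt peak. In the closest combination of their summits, all of these had the 3 HOXD13 summits together and the PITX1 summit apart. The third widest member, of 5239 bp on chromosome 2 from 140920048 to 140925286, had no base under all 4 peaks. There Q317K and PITX1 summits lay at 1202 and 1195 bp from the start of the region, and Q317R and HOXD13 wt summits at 4038 and 3999 bp.

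The positions of the summits, the points of highest signal, were compared within each region. With 1 list a factor, how precisely a summit marks a site was not measured, so distances do not show whether a site is common. The summit spread was taken as the shortest span that holds 1 summit of each factor. In 42 of the 449 regions, the summit used for some factor was not that of its strongest peak. It was 544 bp at the median (477 to 611), with quartiles of 236 and 1013 bp and a range of 27 to 3079 bp. The library fragments were selected at 300 to 450 bp, per the labels' protocols. In many members the outermost summits were thus farther apart than a fragment is long. Median distances for single pairs of factors, given below, ran from 67 to 385 bp. All 4 summits lay within 50 bp in 10 regions, within 100 bp in 35, within 200 bp in 96 or 21.4% (17.7 to 25.5), and within 500 bp in 208.

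**Figure D2:**
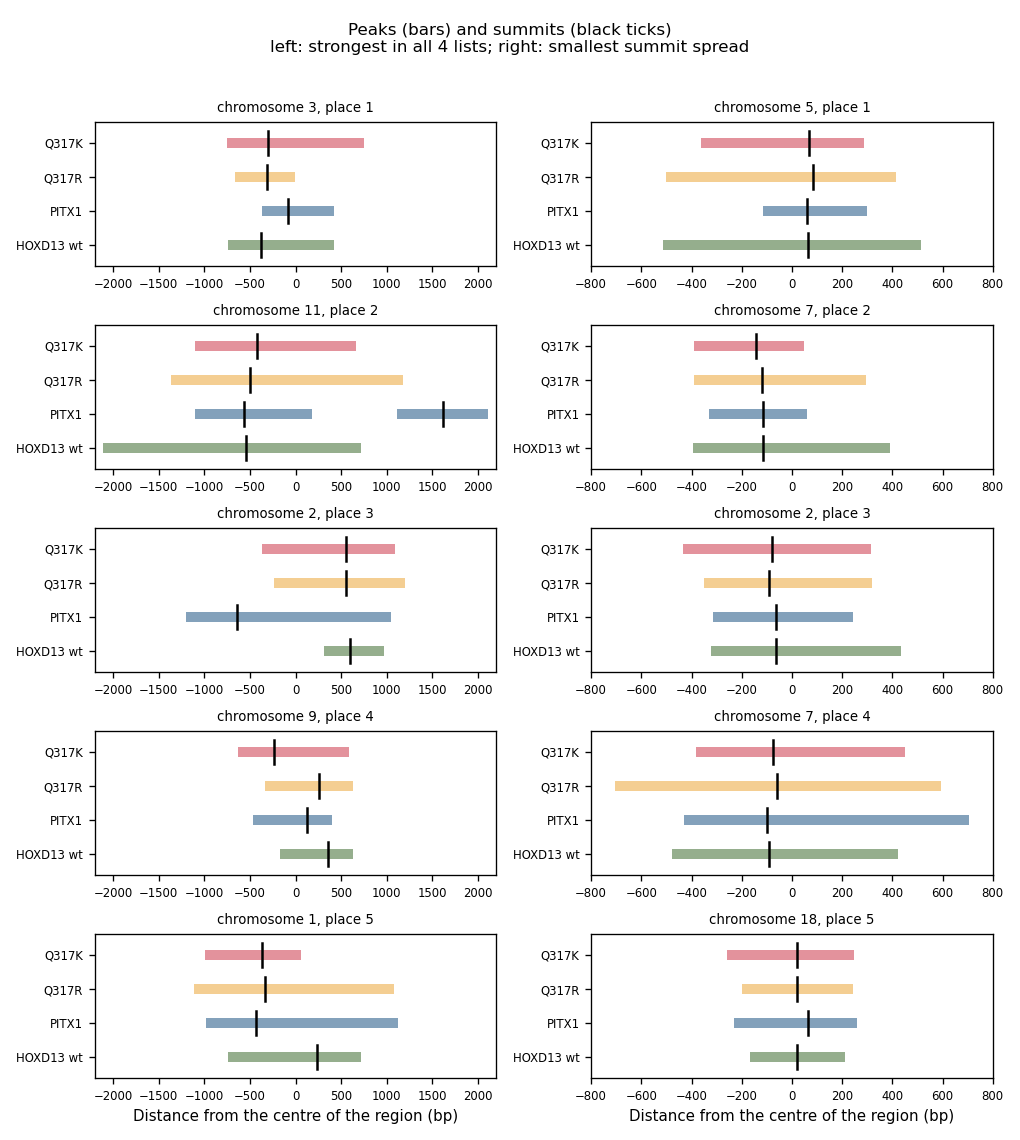
Peaks (bars) and summits (black ticks) of 10 of the 4-factor regions, 1 row per factor, by distance from the centre of the region in bp. Left are the 5 regions with the highest lowest-of-4 fold percentile and right the 5 with the smallest summit spread; summits coincide on the right, while on the left 1 or more factors stand apart, in the chromosome 11 region only the stronger of its 2 PITX1 peaks.

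In the 5 regions of smallest spread, all 4 summits fell within 43 bp. On chromosome 5 from 9197114 to 9198140 the spread was 27 bp, and the authors' fold enrichment, the value each list gives for a peak, was 7.32 (Q317K), 8.13 (Q317R), 12.3 (PITX1) and 6.82 (HOXD13 wt). On chromosome 7 from 2407284 to 2408068 it was 28 bp, with folds of 7.12, 13.9, 6.29 and 9.43 in the same order of factors. The median folds of the lists are 8.24 (Q317K), 7.54 (Q317R), 9.72 (PITX1) and 8.06 (HOXD13 wt). Each of these regions thus has some factors above and some below the median of their list. On chromosome 2 from 129697740 to 129698607 the spread was 30 bp, with folds of 11.2 (Q317K), 14.3 (Q317R), 7.15 (PITX1) and 8.29 (HOXD13 wt). A second region of chromosome 7, from 2280523 to 2281934, had a spread of 38 bp and folds of 7.25, 9.22, 12.4 and 14.1. The narrowest of all members, 519 bp on chromosome 18 from 5250894 to 5251412, had a spread of 43 bp and was weak in every list, with folds of 6.45, 6.21, 7.46 and 6.03, none above the lowest 13.4% of its list. The members with the closest summits thus included peaks from the weakest and the strongest parts of the lists.

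PITX1 was the factor whose summit most often stood apart. It was the farthest from the other summits in 218 of the 449 regions, or 48.6% (43.8 to 53.3). HOXD13 wt was the farthest in 102, or 22.7% (18.9 to 26.9), Q317K in 68, or 15.1% (11.96 to 18.8), and Q317R in 61, or 13.6% (10.6 to 17.1). Between pairs of factors, the nearest summits were 67 bp apart at the median (55 to 80) for Q317R and HOXD13 wt and 78 bp (68 to 88) for Q317K and Q317R. They were 121 bp (105 to 157) for Q317K and HOXD13 wt, 211 bp (170 to 256) for Q317K and PITX1, 332 bp (276 to 377) for Q317R and PITX1 and 385 bp (320 to 425) for PITX1 and HOXD13 wt. The intervals overlap between the first and second of these pairs and between the last 2. Among the HOXD13 forms, Q317K thus had its summit nearest to PITX1 at the median, and the wild type had it farthest away. The Q317R interval between them met only that of the wild type. All of these distances come from the same 449 regions, and differences within a region were not taken. Whether intervals meet is therefore a description and not a test of which form lies nearer to PITX1. When weak peaks were dropped, the order of the medians to PITX1 stayed, but the Q317K and Q317R intervals met as well. Fewer regions were then left, 190 with lists of equal length and 84 with only peaks above the median fold. Fewer regions widen an interval by themselves. With lists of equal length the medians to PITX1 were 230.5 bp (176 to 334) for Q317K and 358 bp (276 to 446) for Q317R. With only peaks above the median fold of their list, they were 342 bp (194 to 422) and 358 bp (289 to 443).

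**Figure D3:**
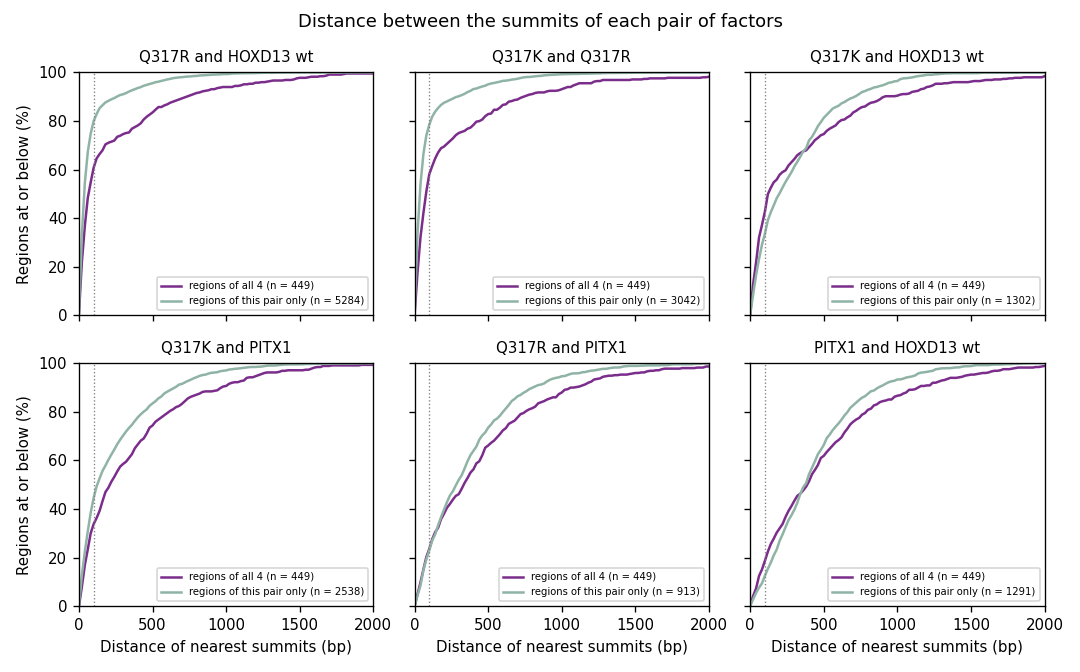
Percentage of regions whose nearest summits lie at or below a distance in bp, for each pair of factors, in the 449 regions of all 4 factors (purple) and in regions called for that pair only (green). The dotted line marks 100 bp; the purple line is lower there for Q317R and HOXD13 wt (60.8% against 80.0%) and higher for PITX1 and HOXD13 wt (18.7% against 12.5%).

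In regions called for 2 factors only, the pairs of Q317R with the other HOXD13 forms were again the closest and PITX1 with HOXD13 wt the widest, but Q317K lay closer to PITX1 (123 bp) than to HOXD13 wt (196 bp). The close pairs were looser in the 4-factor regions. Q317R and HOXD13 wt summits lay within 100 bp in 273 of the 4-factor regions, or 60.8% (56.1 to 65.3), against 80.0% (78.9 to 81.0) of regions of that pair only and 75.5% of all regions holding both. For Q317K and Q317R the number was 261, or 58.1% (53.4 to 62.7), against 78.5% (77.0 to 79.9) of regions of the pair only and 73.2% of all holding both. The regions of the 3 HOXD13 forms without PITX1 lay between, with 67.2% for Q317R and HOXD13 wt and 69.4% for Q317K and Q317R. Q317K and PITX1 summits lay within 100 bp in 152 regions, or 33.9% (29.5 to 38.4), against 44.6% (42.7 to 46.6) of regions of the pair only and 41.7% of all holding both. The other pairs did not have a lower share within 100 bp than regions of the pair only. Q317K and HOXD13 wt met within 100 bp in 192 regions, or 42.8% (38.1 to 47.5), against 33.6% (31.1 to 36.3) of regions of the pair only and 41.4% of all holding both. Q317R and PITX1 met in 106, or 23.6% (19.8 to 27.8), against 23.0% (20.3 to 25.9) and 24.6%. PITX1 and HOXD13 wt met in 84, or 18.7% (15.2 to 22.6), against 12.5% (10.8 to 14.5) and 15.2%. For Q317K and HOXD13 wt, the regions of the 3 HOXD13 forms without PITX1 had 48.6% (46.0 to 51.1), more than the 4-factor regions. Peaks in 4-factor regions are wider, which lets summits lie farther apart. The differences ran in both directions between pairs, and neither they nor the part of width in them was tested.

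Each region's summits were grouped wherever neighbouring ones were at most 100 bp apart. Factors in 1 group are said to share a position, although a chain of neighbours can be longer than 100 bp. The order of the arrangements depended on the grouping distance. At 100 bp the most frequent one, in 116 regions or 25.8% (21.8 to 30.1), had the 3 HOXD13 forms in 1 group and PITX1 apart. In these the PITX1 summit lay 409 bp at the median from the nearest HOXD13 summit (range 101 to 2137). That nearest summit was Q317K in 46 regions, Q317R in 40 and HOXD13 wt in 30. All 4 summits formed 1 group in 78 regions, or 17.4% (14.0 to 21.2), with a median summit spread of 106.5 bp. In 44 regions, or 9.80% (7.21 to 12.9), 4 separate positions were found. At 50 bp, 4 separate positions led with 107 regions, before 83 with PITX1 apart and 29 with all together. At 200 bp, all together led with 131 regions, before 113 with PITX1 apart, and 4 separate positions were found in 13.

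Arrangements with a single HOXD13 form apart were rarer than the one with PITX1 apart. HOXD13 wt stood alone beside a group of the other factors in 31 regions, or 6.90% (4.74 to 9.66), Q317R in 10 and Q317K in 6. Splits into 2 pairs were of almost only 1 kind. Q317K lay with PITX1 and Q317R with HOXD13 wt in 34 regions, or 7.57% (5.30 to 10.4), the pairs being 406 bp apart at the median. The split of Q317K with Q317R from PITX1 with HOXD13 wt was found in 3 regions, and that of Q317K with HOXD13 wt from Q317R with PITX1 in 2. In 47 regions Q317R and HOXD13 wt shared a position while Q317K and PITX1 each stood alone, and in 40 Q317K and Q317R shared one. With groups formed within 200 bp the split of Q317K with PITX1 from Q317R with HOXD13 wt was seen in 35 regions and the other splits in 8 and 6.

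**Figure D4:**
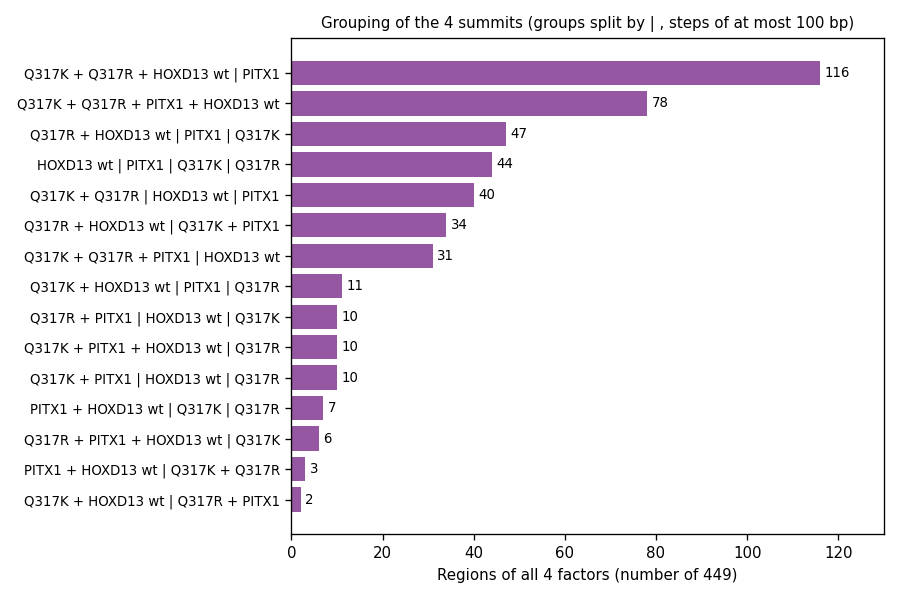
Number of 4-factor regions, out of 449, for each grouping of the 4 summits, with groups separated by a bar sign and neighbouring summits joined up to 100 bp. At this distance the 3 HOXD13 forms together with PITX1 apart lead with 116 regions (they come second at 50 bp, with 83, and at 200 bp, with 113), and Q317K with PITX1 against Q317R with HOXD13 wt has 34, against 3 and 2 for the other splits into pairs.

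Median folds were taken for 3 of these arrangements. Where all 4 summits formed 1 group, median folds were 9.77 (Q317K), 8.30 (Q317R), 12.4 (PITX1) and 8.03 (HOXD13 wt). Where PITX1 stood apart they were 9.27, 9.30, 11.1 and 8.38 in the same order. Where Q317K lay with PITX1 and Q317R with HOXD13 wt, they were 9.20, 8.11, 10.96 and 9.49. Of these 3 arrangements, Q317K and PITX1 had their highest medians where all summits shared a position, and Q317R where PITX1 stood apart. HOXD13 wt had its highest where it shared a position with Q317R alone. Each fold is that of the factor's strongest peak in the region, which need not be the peak whose summit was grouped. No intervals were computed, and these differences were not tested. No base under all 4 peaks was found in 22 of the 116 regions with PITX1 apart and in 8 of the 34 with the split into pairs.

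Strength was then compared with the rest of each list. Fold enrichments of different lists come from different libraries, so each peak was placed by its percentile among the peaks of its own list. Peaks in 4-factor regions were above the middle of the list for Q317K, with a median percentile of 66.3, for Q317R, with 67.0, and for PITX1, with 62.5, and close to it for HOXD13 wt, with 53.5. Among the Q317K peaks in these regions, 195 of 478 or 40.8% were in the strongest 25.0% of the list by fold. For Q317R the number was 192 of 472, or 40.7%, for PITX1 177 of 487, or 36.3%, and for HOXD13 wt 132 of 473, or 27.9%, each against 25.0% of the whole list.

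For the mutants, the median percentile was higher in regions of more factors: 66.3 in regions of 4, 63.9 in regions of 3, 54.8 in regions of 2 and 45.5 in regions of Q317K alone, with 67.0, 64.3, 53.9 and 41.6 for Q317R. PITX1 peaks were at 62.5, 61.8 and 60.2 in regions of 4, 3 and 2 factors and at 47.9 alone. HOXD13 wt peaks did not follow this order, with 53.5 in regions of 4, 57.9 in regions of 3, 58.6 in regions of 2 and 46.6 alone. Among wide peaks alone, the share in 4-factor regions was higher for stronger peaks in 3 of the lists. Within the widest 25.0% of each list, 4-factor regions held 7.34% (6.45 to 8.32) of the Q317R peaks above the list's median fold and 4.30% (3.50 to 5.22) of those at or below it. For Q317K the shares were 5.50% (4.80 to 6.28) and 3.63% (2.93 to 4.44), and for PITX1 2.41% (2.05 to 2.82) and 1.73% (1.34 to 2.19). For HOXD13 wt they were 3.59% (3.09 to 4.14) and 3.83% (3.23 to 4.50). Widths still varied within the widest 25.0%, for Q317K from 871 to 4388 bp, and were not matched between stronger and weaker peaks. Whether strength matters apart from width was therefore not tested.

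**Figure D5:**
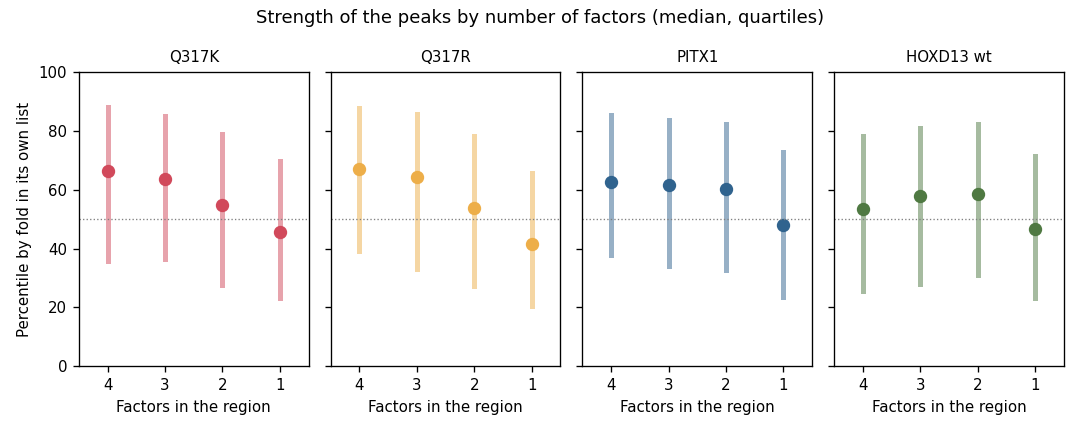
Percentile of peaks by fold within their own list (points are medians, bars run between the quartiles), for peaks in regions of 4, 3, 2 and 1 factors. Q317K and Q317R have medians of 66.3 and 67.0 in regions of 4 factors and 45.5 and 41.6 in regions of 1, while HOXD13 wt has 53.5 in regions of 4 and 58.6 in regions of 2.

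The top of each list was examined in the same way. Of the 1000 peaks of largest fold, 4-factor regions held 65 for Q317R, or 6.50% (5.05 to 8.21), 48 for Q317K, or 4.80% (3.56 to 6.31), 34 for PITX1, or 3.40% (2.37 to 4.72), and 16 for HOXD13 wt, or 1.60% (0.917 to 2.59). Over the whole lists these shares were 2.21% (Q317R), 1.91% (Q317K), 1.19% (PITX1) and 1.38% (HOXD13 wt). For HOXD13 wt the share of the whole list lay inside the interval of its top peaks. Within the 449 regions, PITX1 had the highest of the 4 percentiles in 136 regions, Q317K in 126, Q317R in 115 and HOXD13 wt in 72. HOXD13 wt had the lowest in 153, PITX1 in 110, Q317R in 94 and Q317K in 92. A percentile depends on where its list ends, and the lists differ in length and lowest −log10 p. These counts therefore do not rank the factors by strength of binding.

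Few 4-factor regions were strong in every list. The lowest of the 4 percentiles was 23.5 at the median (19.9 to 26.5). All 4 factors were in the strongest 25.0% of their lists in 11 regions, 3 factors in 72, 2 in 140, 1 in 141 and none in 85. Taken singly, Q317K was there in 42.8% of the regions, Q317R in 42.1%, PITX1 in 37.6% and HOXD13 wt in 29.2%. The lowest of 4 values is low by construction. What unrelated folds would give was not computed, so these numbers do not show that the factors differ in strength within a region. Across the 449 regions, the folds of Q317R and HOXD13 wt had a Spearman correlation of 0.26 and those of Q317K and Q317R one of 0.24, against 0.16 and 0.18 over all regions holding each pair. For Q317K with HOXD13 wt it was 0.03, for Q317K with PITX1 0.01, for PITX1 with HOXD13 wt −0.04 and for Q317R with PITX1 −0.08, against 0.04, 0.07, 0.02 and 0.02 over all regions holding each pair. These are descriptions across regions, which are not independent and share libraries.

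The 5 members with the highest lowest-of-4 percentile were strong for every factor. The first, on chromosome 3 from 14935202 to 14936699, had folds of 19.2 (Q317K), 13.0 (Q317R), 20.9 (PITX1) and 15.5 (HOXD13 wt). Its HOXD13 summits lay 446, 435 and 365 bp from its start for Q317K, Q317R and the wild type, and its PITX1 summit at 669 bp. The second, on chromosome 11 from 5831792 to 5836015, had folds of 12.3, 16.8, 17.0 and 17.4 in the same order. It held 2 PITX1 peaks: the one with a fold of 15.7 had its summit within 136 bp of those of all other factors, and the stronger one, of 17.0, had its summit at 1620 bp from the centre of the region, where the others lay at −561 to −425 bp. The third, on chromosome 2 from 32995669 to 32998069, had folds of 20.5, 13.0, 23.8 and 12.9. Its PITX1 summit stood 562 bp from its start, with the HOXD13 summits between 1749 and 1801 bp. The fourth, on chromosome 9 from 6813124 to 6814390, had folds of 11.7, 12.7, 15.4 and 17.5 and 4 separate summits. The fifth, on chromosome 1 from 159863827 to 159866061, had folds of 18.1, 12.2, 13.8 and 19.2, and there the HOXD13 wt summit stood apart at 1355 bp while the others lay between 686 and 783 bp.

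The 4 members with the largest fold of each factor were chosen after their values were seen. This choice favours 1 factor in each region by construction, and folds of different lists come from different libraries. On chromosome 1 from 156938300 to 156940002, Q317K had a fold of 38.3, the second largest of its list. Q317R had 16.4 there, PITX1 8.98 and HOXD13 wt 6.14. The HOXD13 wt peak was among the weakest of its list, at percentile 6.19, and no base lay under all 4 peaks. On chromosome 5 from 30950544 to 30952726, Q317R reached 23.1, with 20.1 for Q317K, 8.76 for PITX1 and 15.0 for HOXD13 wt. The HOXD13 summits stood between 915 and 948 bp from the start of that region and the PITX1 summit at 1659 bp. On chromosome 3 from 81557934 to 81560538, PITX1 reached 31.4, beside folds of 17.3 (Q317K), 6.37 (Q317R) and 13.8 (HOXD13 wt), and all summits lay within 127 bp.

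The member with the largest wild-type fold, on chromosome 1 from 159066777 to 159068079, had 8.97 (Q317K), 17.8 (Q317R), 8.63 (PITX1) and 38.0 (HOXD13 wt). Its Q317R and HOXD13 wt summits lay 526 and 530 bp from the start of the region, and its Q317K and PITX1 summits at 925 and 915 bp. Within their own lists, Q317R and HOXD13 wt were at percentiles 99.8 and 99.98 there, Q317K at 62.5 and PITX1 at 33.4.

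Along the genome, the shares of 4-factor regions were near those of all merged regions, of which 82.0% are regions of 1 factor. Chromosomes 1 to 5 and Z held 312 of them, or 69.5% (65.0 to 73.7), against 69.6% of all merged regions, and chromosomes 6 to 10 held 82, or 18.3% (14.8 to 22.2), against 15.5%. The small chromosomes numbered 11 and above held 55, or 12.2% (9.36 to 15.6), against 14.8%. They held 11.7% of the regions of 3 factors, 11.6% of those of 2 and 15.5% of those of 1. Among the 96 members whose summits all lay within 200 bp the share on these small chromosomes was 17.7% (10.7 to 26.8). That interval holds both 12.2% and 14.8%. By single chromosome, the share of merged regions called for all 4 factors was lowest on chromosome 14, at 0.162% (0.0196 to 0.585), and highest on chromosome 10, at 0.734% (0.411 to 1.21), among chromosomes holding any. Chromosome 1 held 97 members, chromosome 2 79 and chromosome 3 53, while chromosome Z held 13, or 0.289% of its regions (0.154 to 0.493). The intervals of chromosomes 14, 10 and Z all hold the 0.452% of all merged regions. No member lay on 16, 22, 23, 25, 26 or W, which together hold 996 merged regions. The interval of each of these chromosomes also reaches above 0.452%.

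Members stood in slightly denser surroundings than other regions. Within 50 kb on either side of its centre, a 4-factor region had a median of 14 other merged regions (13 to 14, quartiles 10 and 18). Regions of 3 factors had 12, those of 2 had 12 and those of 1 had 11. The median gap between neighbouring members on a chromosome was 1044000 bp, to the nearest kb. Of 425 neighbouring pairs, 17 were at most 10 kb apart and 59 at most 100 kb. Runs of members no more than 100 kb apart numbered 46 and took in 105 of the 449 regions. Such spacing was not measured for other regions or for equally many regions drawn from all. These counts therefore do not show whether members cluster. The 3 longest runs, of 4 members each, lay on chromosome 12 from 4624303 to 4719668, on chromosome 3 from 24473156 to 24648130 and on chromosome 2 from 68591781 to 68780648. The tightest run of 3 spanned 25525 bp on chromosome 7 from 2280523 to 2306047 and begins with the member of 38 bp summit spread described above.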

How the data were processed

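Chromatin immunoprecipitation of 4 FLAG-tagged factors (36 bp single reads) and polyA RNA of 5 cultures were examined, without the 4 inputs. Per the submitters' processing notes, MACS2 was the peak caller. The sources used here do not name its version and thresholds, the aligner or the genome build, or say whether samples were pooled before calling. The deposited lists give, for each peak, its limits, its summit, the authors' fold enrichment (a ratio) and the authors' −log10 p. The deposited RNA table gives the authors' RPKM values, with no description of the counting. ChIP depth is unknown.

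Positions were converted to 1-based. Peaks of all lists were merged where at least 1 bp was shared, with the same regions as bedtools 2.31.1 gave, using Python 3.11.15, numpy 2.4.6, pandas 2.3.3 and scipy 1.17.1. Where a factor had several peaks in a region, its strongest by fold gave its value, and the combination of summits with the shortest span gave its spread. Percentiles were taken within a factor's own list. Intervals are 95% Clopper-Pearson for shares and order-statistic intervals for medians, and cover counting over regions only. No test was made, since every factor has 1 list. The steps were tested on simulated peaks.

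Named regions are the 5 with the highest lowest-of-4 percentile, the 5 of smallest summit spread, the 3 widest, the 3 with most peaks, the 3 joined by the smallest overlap and the 3 of 3 factors with the smallest gap to the missing factor. The members, the marker genes and these rules were chosen with earlier results of these data known. Alternatives changed the joining rule, the ends of the lists, the summit distance and the measure of strength.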

Additional observations from a re-analysis of the deposited data

How the results depend on the processing

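The number of regions followed the strictness of the call. It was 449 as reported, 225 with every list ended at a −log10 p of 52.1, 190 with every list ended at 21396 peaks, 131 with 200 bp windows around summits in place of peaks, 96 with all summits within 200 bp, and 84 with the stronger part of each list, above its median fold. Joining peaks up to a gap of 100 bp gave 474, and requiring a shared base gave 357, both within 1.5 times of the reported number. The median lowest percentile was 40.3 with the common −log10 p, 42.0 with lists of equal length, 59.9 with the stronger part of the lists, and 27.0 when percentiles were taken by −log10 p; dropping weak peaks raises it by construction.

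Median width was 1696 bp with a shared base, 1421.5 bp with summits within 200 bp and 347 bp with windows. Median spread was 430, 115.5 and 147 bp under these, and 466 bp where peaks had to share 50% of the shorter one. PITX1 was the farthest summit in 54.2% with lists of equal length, 60.7% in the stronger part, 41.2% with windows and 39.6% with summits within 200 bp. The arrangement with PITX1 apart took 33.3% in the stronger part, 15.3% with windows, 12.5% with summits within 200 bp and 18.5% with summits grouped within 50 bp. The split of Q317K with PITX1 from Q317R with HOXD13 wt took 3.12% with summits within 200 bp and 4.68% with grouping within 50 bp. With grouping within 50 and 200 bp, all 4 summits formed 1 group in 6.46% and 29.2%, and 4 separate positions took 23.8% and 2.90%, so the order of the arrangements turned. The share on chromosomes numbered 11 and above was 17.7% (10.7 to 26.8) with summits within 200 bp and 17.6% (11.5 to 25.2) with windows. The grouping distances, and the alternatives for the shares of arrangements, were chosen after seeing the data. Some of these shifts follow by construction. Keeping only summits within 200 bp limits the spread and leaves little room for a summit apart. Windows of 200 bp narrow both width and spread. A shorter grouping distance splits groups, and a longer one joins them. The cause of the other shifts was not tested.

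No paired analysis was possible because each factor has 1 peak list and each RNA group 1 library. For the same reason there was no replicate to leave out, and no value carries an error between cultures. Peak lists hold no reads, so binding below the end of a list was not measured.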
